A study of Mus musculus with 2 samples.

Results

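The 9 genes described here encode transcription factors that direct or maintain myeloid cells, the monocytes, macrophages, dendritic cells and granulocytes of the innate immune system. They are Spi1, Irf4, Irf8, Cebpa, Cebpb, Batf3, Klf4, Nr4a1 and Zbtb46, chosen by symbol from the 31053 genes counted, and each matched 1 row of the count tables. They were followed across 9 myeloid classes of lung cells in 2 single-cell RNA libraries. The DEP library was labelled as coming from mice that breathed diesel exhaust particles (DEP, the carbon-rich soot of diesel engines) in a whole-body chamber at 500 µg/m³, for 1 hour on each of 5 days a week, for 2 weeks. The control library was labelled as untreated, and the labels give no age. The labels give both libraries the genotype Ccr2-/-, with the CD45 form named as CD45.3+ for the DEP library and CD45.1+ for the control library. By label both groups lack the chemokine receptor that monocytes use to leave the bone marrow. The series' design text names C57BL/6J wild-type mice as well. Cells bearing CD45, a surface protein of leukocytes, were sorted from perfused and digested lungs. With 1 library per group there was no spread between animals to test against. The labels do not say whether animals were pooled, and every interval below covers counting error only.

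The DEP library held 10000 barcodes and 67030914 unique molecular identifiers (UMIs, each standing for 1 captured transcript), and the control library 10312 barcodes and 62047730 UMIs. After filtering, 8690 and 8940 cells remained, of which 4576 and 4444 fell into the 9 myeloid classes, while 588 and 781 were in clusters that marker genes did not name. Of the barcode sequences of kept cells, 17 occurred in both libraries. The classes were named from clusters built without the 9 factors, so a factor's level in a class was not fixed by how the class was drawn. Each class name means cells like that type. The markers were then summed in each class. The 14 alveolar macrophage markers summed to 24026 CPM in DEP and 22883 CPM in control cells in alveolar macrophages. The 11 neutrophil markers summed to 189036 CPM in DEP and 173102 CPM in control cells in neutrophils, with none at 0 in either class. Ccr2 itself was read at 779 CPM in DEP and 586 CPM in the control library in classical monocytes, against 2.38 and 4.44 CPM in neutrophils. The deleted stretch of the allele is not given in the sources used here. Tags from the 3′ end of a transcript check nothing if they lie outside it, so the genotype could not be checked.

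As background, PU.1, the ETS-family protein encoded by Spi1, opens the enhancers of most myeloid genes and works with the C/EBP proteins encoded by Cebpa and Cebpb. Dendritic cells divide into a type 1 branch that depends on IRF8 and BATF3, a type 2 branch that depends on IRF4 and, in part, KLF4, and plasmacytoid cells, which keep high IRF8, while ZBTB46 marks the conventional branches. Nonclassical monocytes, which patrol vessel walls, depend on NR4A1, and both Nr4a1 and Klf4 are also induced within minutes by many stimuli, cell isolation among them.

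On mouse build mm10 all 9 are protein-coding genes on 7 chromosomes. Spi1 lies at chr2:91082390-91115756, plus strand, Cebpa at chr7:35119293-35121928, plus strand, and Cebpb at chr2:167688915-167690418, plus strand. Irf8 lies at chr8:120736358-120756694, plus strand, Irf4 at chr13:30749226-30766976, plus strand, and Batf3 at chr1:191097847-191108945, plus strand. Zbtb46 lies at chr2:181387762-181459426, minus strand, Klf4 at chr4:55527143-55532466, minus strand, and Nr4a1 at chr15:101254269-101274795, plus strand. The promoter, taken as the 250 bases before a RefSeq start, was read from the RefSeq tables of build GRCm38.p6 for 8 of the 9 members, with 2 windows for Irf8. Those of 4 are shown, 2 of genes whose monocyte levels differed between the libraries (Nr4a1, Klf4) and 2 of the interferon regulatory factors that divide the dendritic branches (Irf8, Irf4). Each runs 5′ to 3′ on the gene's strand, and capitals mark motif matches, which are TGACG or its complement CGTCA in Nr4a1 and Klf4, and TTCCTC, the complement of GAGGAA, in Irf4.
Nr4a1 (chr15:101266596-101266845, plus strand): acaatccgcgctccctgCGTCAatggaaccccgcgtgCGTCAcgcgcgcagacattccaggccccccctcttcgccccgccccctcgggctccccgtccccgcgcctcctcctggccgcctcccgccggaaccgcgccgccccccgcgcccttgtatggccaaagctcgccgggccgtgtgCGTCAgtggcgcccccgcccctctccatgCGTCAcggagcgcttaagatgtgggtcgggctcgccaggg
Klf4 (chr4:55532476-55532725, minus strand): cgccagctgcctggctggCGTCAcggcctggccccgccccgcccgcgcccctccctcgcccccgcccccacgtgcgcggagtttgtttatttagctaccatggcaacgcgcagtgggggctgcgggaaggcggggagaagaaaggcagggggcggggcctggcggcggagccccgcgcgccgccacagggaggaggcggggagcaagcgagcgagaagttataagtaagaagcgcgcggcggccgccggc
Irf8, upstream window (chr8:120736108-120736357, plus strand): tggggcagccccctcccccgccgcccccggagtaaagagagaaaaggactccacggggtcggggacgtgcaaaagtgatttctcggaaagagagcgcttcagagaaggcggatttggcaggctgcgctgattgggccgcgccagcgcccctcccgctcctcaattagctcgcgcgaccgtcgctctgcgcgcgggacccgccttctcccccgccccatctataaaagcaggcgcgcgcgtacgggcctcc
Irf4 (chr13:30748983-30749232, plus strand): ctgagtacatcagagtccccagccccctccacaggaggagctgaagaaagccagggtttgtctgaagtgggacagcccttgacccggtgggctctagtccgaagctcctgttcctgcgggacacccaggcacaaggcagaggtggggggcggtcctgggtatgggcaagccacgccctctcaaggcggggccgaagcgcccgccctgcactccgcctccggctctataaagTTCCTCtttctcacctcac

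Motifs of the members' own families and of the cAMP response were searched on both strands of these windows. TGACG, the core of the cAMP response element, occurred 4 times before Nr4a1, 3 times before Cebpb and 1 time before Klf4, and 17.8% of all 32851 RefSeq windows of this length held it. The box bound by PU.1, GAGGAA, occurred 1 time each before Irf4 and Batf3, against 23.3% of windows. CCACCC, bound by KLF proteins, occurred 4 times before Batf3 and 1 time each before Cebpa, Cebpb and Zbtb46, against 28.1% of windows. TGANTCA, bound by AP-1 and BATF proteins, occurred 1 time before Zbtb46, against 6.75% of windows. The Zbtb46 window (chr2:181424389-181424638) lies inside the gene, before an internal RefSeq start. The windows of Nr4a1 and Batf3 and the downstream one of Irf8 also lie inside the span of their gene. TTGCNNAA (C/EBP, 9.56% of windows), the ETS and IRF composite element (2.30%), the interferon response element (2.98%) and AAAGGTCA (NR4A, 1.34%) were in none of the members' windows. Both Irf8 windows held none of the 8 motifs. Windows of this length leave out distal enhancers, and a match describes letters only.

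Spi1 was read in every myeloid class, and its level is given throughout as CPM, counts per 1000000 UMIs summed over the cells of a class and library. In neutrophils Spi1 stood at 1061 CPM (95% interval 1039 to 1084) in DEP and 805 CPM (95% interval 785 to 825) in control cells, and in nonclassical monocytes at 865 CPM in DEP and 821 CPM in control cells. Classical monocytes followed at 589.5 CPM in DEP and 532 CPM in control cells, and alveolar macrophages at 537 CPM in DEP and 543 CPM in control cells. The order between neutrophils and nonclassical monocytes differed between the libraries, as did that between classical monocytes and alveolar macrophages, so neighbours in that order could not be ranked. Interstitial macrophages, type 1, type 2 and mature dendritic cells lay between 283 and 425 CPM. Plasmacytoid cells, with 26 cells in the DEP and 23 in the control library, were lowest at 123 CPM in DEP and 41.9 CPM in control cells. B cells, which use PU.1 at low dose, had 55.8 CPM in DEP and 52.1 CPM in control cells. T cells, which should lack the transcript, had 4.29 CPM in DEP and 4.66 CPM in control cells, where 2.39% of DEP and 2.10% of control cells carried Spi1. The median T cell held 5987.5 UMIs in the DEP and 5394 in the control library.

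**Figure D1:**
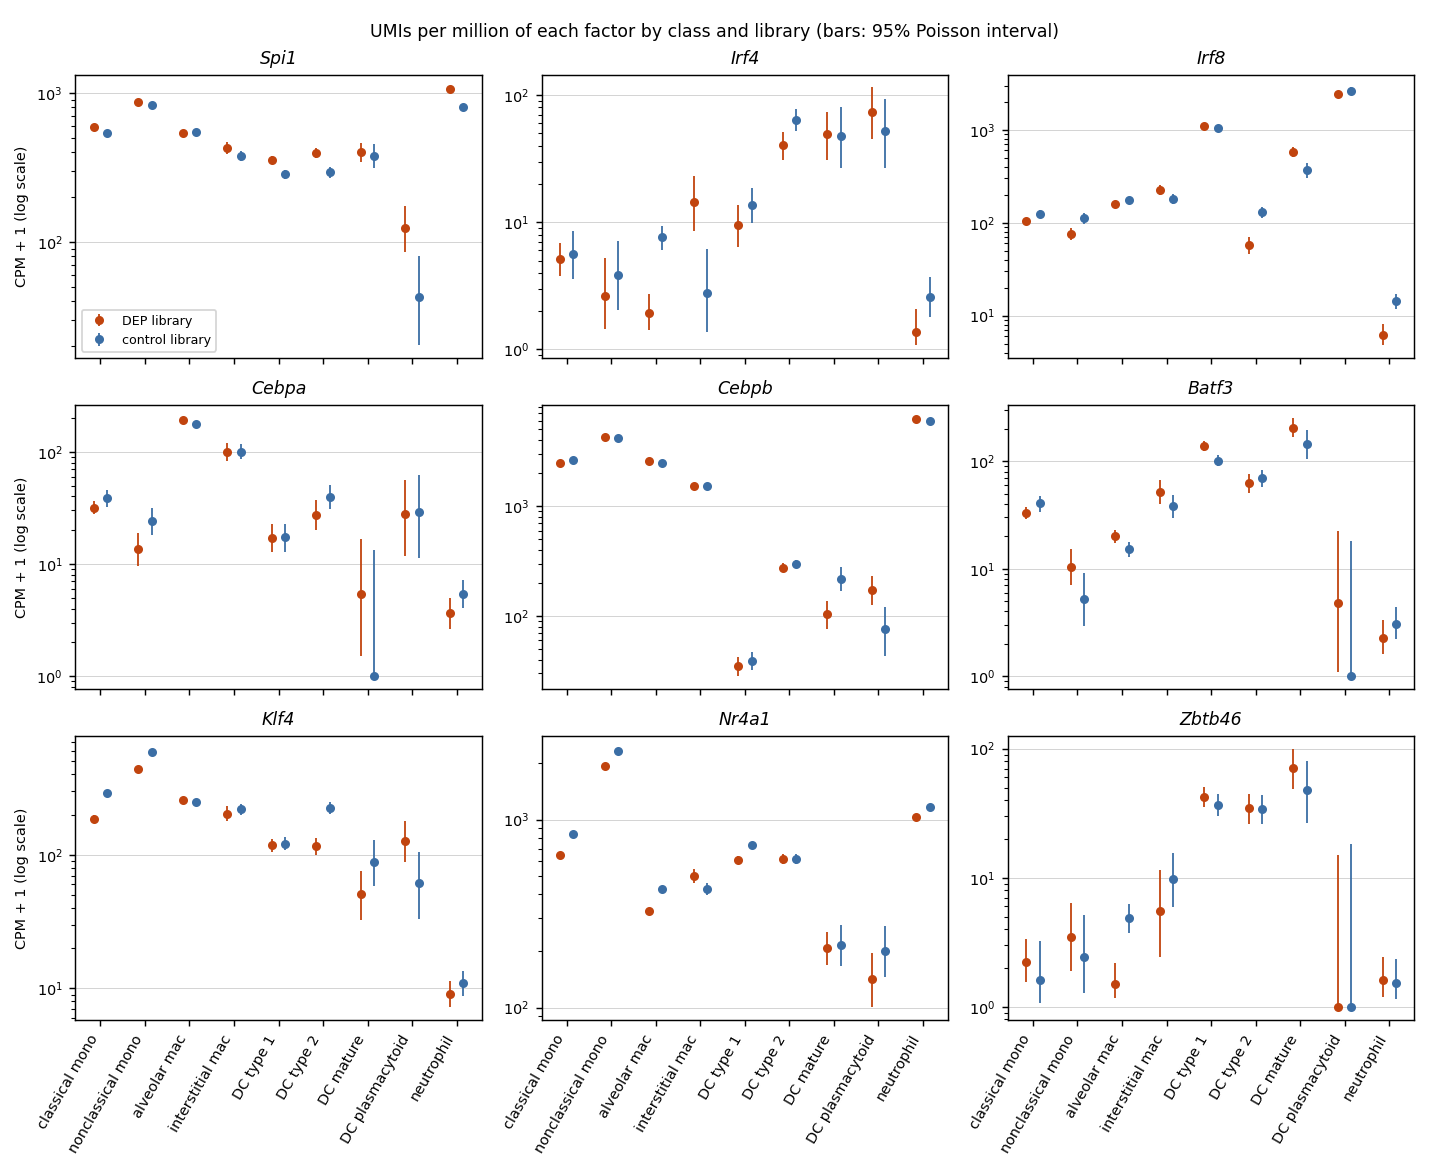
Level of each of the 9 factors (CPM plus 1, log axis, a separate scale per panel) in the 9 myeloid classes, the DEP library left of the control library, with exact Poisson intervals. Spi1 spans most classes, Irf8 peaks in plasmacytoid and type 1 dendritic cells, Cebpb in neutrophils and nonclassical monocytes, and Zbtb46 in conventional and mature dendritic cells.

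The 2 C/EBP genes were distributed differently. Cebpa, whose product starts granulocyte and monocyte development and is lost as neutrophils mature, was highest in alveolar macrophages at 189 CPM (95% interval 181 to 198) in DEP and 175 CPM (95% interval 166 to 183) in control cells, then in interstitial macrophages at 98.8 CPM in DEP and 99.1 CPM in control cells. Classical monocytes had 30.8 CPM in DEP and 37.7 CPM in control cells, and neutrophils only 2.63 CPM in DEP and 4.44 CPM in control cells. Cebpb, which serves inflammatory gene expression and the survival of nonclassical monocytes, was highest in neutrophils at 6260.2 CPM (95% interval 6206 to 6315) in DEP and 5949 CPM (95% interval 5895 to 6004) in control cells. Nonclassical monocytes followed at 4239 CPM in DEP and 4180.2 CPM in control cells, ahead of classical monocytes with 2467 CPM in DEP and 2610.4 CPM in control cells and alveolar macrophages with 2565 CPM in DEP and 2469 CPM in control cells, whose order differed between the libraries. Interstitial macrophages had 1527 CPM in DEP and 1531 CPM in control cells. Dendritic cells were far lower, with 275 CPM in DEP and 298 CPM in control cells in type 2 cells and 33.7 CPM in DEP and 38.4 CPM in control cells in type 1 cells, where it was the lowest of the 9 classes.

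Neutrophils were not uniform in these genes. In the smallest of their 4 clusters, 24 DEP and 13 control cells led by the granule genes Camp and Ngp that mark immature neutrophils, Cebpb was 2371 CPM in DEP and 2522 CPM in control cells and Spi1 was 452 CPM in DEP and 463 CPM in control cells. In the largest cluster, with 1225 and 1402 cells, Cebpb was 5985 CPM in DEP and 5994 CPM in control cells and Spi1 was 1079 CPM in DEP and 784 CPM in control cells. Nr4a1 divided the large clusters, with 659 CPM in DEP and 866 CPM in control cells in the largest and 1424 CPM in DEP and 1506 CPM in control cells in the next, which held 1179 and 1238 cells.

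Irf8 followed the dendritic branches. Plasmacytoid cells had 2402 CPM in DEP and 2635 CPM in control cells. Type 1 dendritic cells had 1109 CPM (95% interval 1070.4 to 1148) in DEP and 1039 CPM (95% interval 1001 to 1078) in control cells. Mature dendritic cells, activated conventional cells bound for lymph nodes, had 579 CPM in DEP and 366 CPM in control cells. Interstitial macrophages (223 and 179.5 CPM in the DEP and control libraries) and alveolar macrophages (157 and 177 CPM) were next, and classical monocytes stood at 102 CPM in DEP and 124 CPM in control cells. Natural killer cells, outside the myeloid classes, had 2568 CPM in DEP and 2791 CPM in control cells, close to plasmacytoid cells, and B cells had 266 CPM in DEP and 283 CPM in control cells. Neutrophils were lowest, at 5.25 CPM in DEP and 13.2 CPM in control cells. Irf8 in neutrophils was seen in 1.52% of DEP and 3.21% of control cells, and in 2.94% and 5.20% of T cells. Neutrophils had medians of 2892.5 and 2680 UMIs per cell, fewer than T cells. Thinned to 1000 UMIs per cell, the shares were 0.386% of DEP and 1.28% of control neutrophils, and 0.737% and 0.645% of T cells, with overlapping intervals in each library. The part of free RNA in these values was not tested.

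Irf4, the factor of type 2 dendritic cells and of antibody-secreting cells, was low everywhere. It reached 39.2 CPM in DEP and 62.9 CPM in control cells in type 2 dendritic cells. It was 47.9 CPM in DEP and 47.0 CPM in control cells in mature dendritic cells and 72.8 CPM in DEP and 51.2 CPM in control cells in plasmacytoid cells, and the order of these 3 differed between the libraries. Type 1 dendritic cells had 8.44 CPM in DEP and 12.7 CPM in control cells, and the monocyte and macrophage classes between 0.924 and 13.5 CPM. B cells, with 72.7 CPM in DEP and 102 CPM in control cells, exceeded most myeloid classes. Batf3, the partner of IRF8 in type 1 cells, was highest in mature dendritic cells at 205 CPM in DEP and 144 CPM in control cells, followed by type 1 dendritic cells at 138 CPM (95% interval 124 to 152) in DEP and 101 CPM (95% interval 89.1 to 113) in control cells. Type 2 dendritic cells had 61.3 CPM in DEP and 68.2 CPM in control cells, and interstitial macrophages (51.2 and 37.5 CPM in the DEP and control libraries) and classical monocytes (32.1 and 39.6 CPM) overlapped. Zbtb46 was read mainly in conventional dendritic cells, with 69.7 CPM in DEP and 47.0 CPM in control cells in mature ones. Type 1 cells had 41.5 CPM in DEP and 35.8 CPM in control cells, and type 2 cells 33.5 CPM in DEP and 33.2 CPM in control cells. Elsewhere in the myeloid classes it was at most 8.80 CPM. Plasmacytoid cells had 0 UMIs in both libraries, which allows up to 11.5 CPM in the DEP and 14.0 CPM in the control library at 3 counts.

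Klf4 and Nr4a1 were highest in nonclassical monocytes. Klf4, which monocytes need to form, stood there at 437 CPM (95% interval 411 to 464) in DEP and 584 CPM (95% interval 552 to 618) in control cells. Alveolar macrophages had 256 CPM in DEP and 247 CPM in control cells, classical monocytes 186 CPM in DEP and 288 CPM in control cells and interstitial macrophages 202 CPM in DEP and 218 CPM in control cells, 3 classes whose order differed between the libraries. Neutrophils had 8.13 CPM in DEP and 9.94 CPM in control cells. Nr4a1, an orphan nuclear receptor, stood in nonclassical monocytes at 1935 CPM (95% interval 1879.8 to 1991) in DEP and 2309.9 CPM (95% interval 2246 to 2376) in control cells, and in neutrophils at 1033 CPM in DEP and 1166 CPM in control cells. Classical monocytes had 647 CPM in DEP and 834 CPM in control cells, type 1 dendritic cells 612 CPM in DEP and 729 CPM in control cells and type 2 dendritic cells 619.6 CPM in DEP and 619 CPM in control cells. Mature and plasmacytoid dendritic cells were lowest, and B cells had 612 CPM in DEP and 706 CPM in control cells.

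Across the 18 points given by 9 classes and 2 libraries, the levels of Batf3 and Zbtb46 ran together (Pearson r 0.88 of log2 CPM plus 10), and those of Spi1 and Irf8 ran opposite (-0.83), as did those of Irf8 and Cebpb (-0.81). Among 9521 genes with at least 200 UMIs, the gene most like Spi1 was Csf2ra (r 0.94), a receptor chain for GM-CSF, followed by Mcl1 and Nfkbia. Cebpb was most like Osm (0.97), the cytokine oncostatin M, then Neu1 and Por, and Cebpa most like Abcd3 (0.97), a peroxisomal transporter, then G3bp2 and Slc39a1. Zbtb46 was most like Lrrc32 (0.99), Ccl17, a chemokine of dendritic cells, and Tbc1d4. Batf3 was nearest to Sh3bgrl3, Lpcat1 and H2afz (lowest r 0.95), Irf8 to Gtf3c6, Pafah1b3 and Alkbh1 (0.90), and Irf4 to Il7r, Upb1 and Klrd1 (0.87). Klf4 was nearest to Hipk3, Abca3 and Capns1 (0.92), and Nr4a1 to Notch2, Nadk and Kdm7a (0.90). The points share libraries, free RNA and depth, so these values are a description.

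The comparison of the DEP with the control library asks how these factors differ between lung myeloid cells labelled as exposed and as untreated. The CD45 form in the labels differed between the same libraries, so it cannot be told apart from exposure. Ratios were formed where both libraries gave 50 or more cells, which left 7 myeloid classes. A pair of factor and class was called when it had at least 20 UMIs, a fold past 1.5 and a 95% counting interval excluding 1. Of 63 pairs 57 had enough UMIs, and 0 were called higher and 8 lower in the DEP library. The calls fell on Klf4 in classical monocytes and type 2 dendritic cells, Irf8 in type 2 dendritic cells and neutrophils, Irf4 in type 2 dendritic cells and alveolar macrophages, Cebpa in nonclassical monocytes and Zbtb46 in alveolar macrophages. Per class, 0 to 3 of 7 to 9 counted members were called lower, beside 3.65% to 7.65% of all genes, so a class with 0 or 1 call stood near the background. Several of the 8 rest on low counts or on a part of a class, as described below. Spi1, Cebpb, Nr4a1 and Batf3 were called in none of the 7 classes. Their log2 ratios ran from -0.01 to 0.43 for Spi1, from -0.40 to 0.23 for Nr4a1 and from -0.18 to 0.07 for Cebpb. Batf3 ranged more widely, from -0.72 to 1.10. Its highest ratio, in nonclassical monocytes, rested on 23 UMIs in DEP and 9 in control cells, and its interval (-0.01 to 2.45) just included 0.

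**Figure D2:**
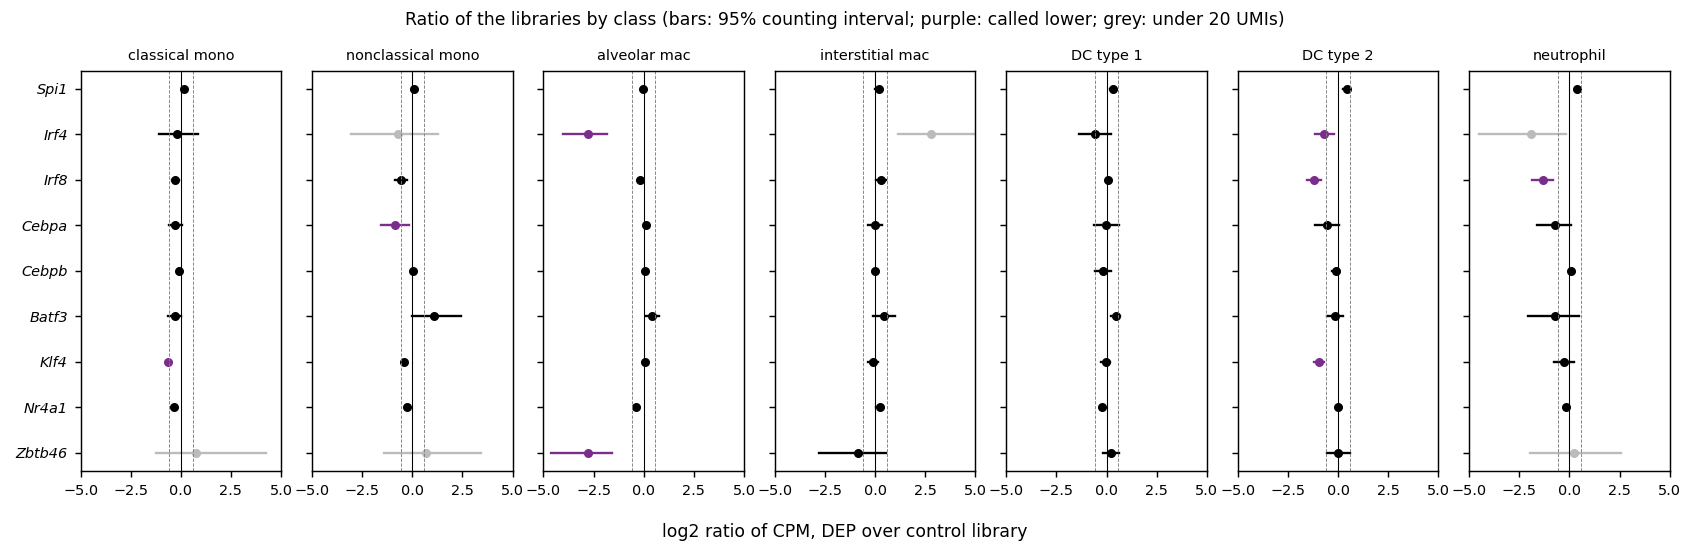
Log2 ratio of CPM in the DEP over the control library for the 9 factors in 7 classes, with 95% counting intervals, dashed lines at 1.5-fold, called pairs in purple and pairs under 20 UMIs in grey; bars past 5 are cut at the axis. All 8 called pairs lie left of 0, and the widest of their intervals belong to Irf4 and Zbtb46 in alveolar macrophages.

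In classical monocytes, the 578 DEP and 368 control cells had medians of 12302.5 and 8756.5 UMIs. Klf4 was lower in the DEP library, at 186 CPM against 288 CPM in the control library, a log2 ratio of -0.63 (interval -0.75 to -0.51). It was the only called member of 8 counted, beside 6.34% of 9384 genes called lower and 5.08% called higher in this class. Markers of other cells differed too, with 11 neutrophil markers at 1453 CPM in DEP and 685 CPM in control cells and 14 alveolar macrophage markers at 2300.1 CPM in DEP and 1308 CPM in control cells, none of them at 0. Their part in the values was not tested. Nr4a1 was also lower, at 647 CPM in DEP and 834 CPM in control cells, with a log2 ratio of -0.37 (interval -0.43 to -0.30) that did not pass 1.5-fold. Irf8 had a log2 ratio of -0.28 (interval -0.45 to -0.10), Spi1 of 0.15 (interval 0.07 to 0.23) and Cebpb of -0.08 (interval -0.12 to -0.04). The share of cells with Klf4 did not follow its level: thinned to 1000 UMIs per cell it was 18.3% in the DEP and 17.4% in the control library, and unthinned 65.9% and 67.7%.

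Classical monocytes split into 8 subclusters, again built without the 9 factors, and 4 of these came mostly from 1 library. A subcluster led by Cd38, C1qb and Sdc4 held 142 DEP and 5 control cells, one led by Ly6a, Ocstamp and H2-Eb1 held 117 and 5, and one led by the granule and heat shock genes S100a8, Lcn2 and Hspa1b held 104 and 0. Their Klf4 levels were 158, 103 and 180.3 CPM and their Nr4a1 levels 565, 491 and 539 CPM. Another, of 6 DEP and 43 control cells, had 112 CPM of Klf4 and 739 CPM of Nr4a1. The highest Klf4 level, 434 CPM, was in a subcluster of 71 DEP and 115 control cells led by Cd209a, a lectin of dendritic cells and of some monocytes. Within that subcluster Klf4 was 359.8 CPM in DEP and 482 CPM in control cells, while in the 2 other large shared subclusters it was 223 CPM in DEP and 249 CPM in control cells, and 219 CPM in DEP and 165 CPM in control cells. Thus no 1 direction held. Nr4a1 in the same 3 was 841 CPM in DEP and 892 CPM in control cells, then 971 CPM in DEP and 843 CPM in control cells, then 1049 CPM in DEP and 848 CPM in control cells. Without the 4 subclusters mostly of 1 library, 209 DEP and 315 control cells gave a log2 ratio of -0.16 for Klf4, which was then not called, and 0.13 for Nr4a1. Low Nr4a1 went with 3 subclusters found almost only in the DEP library. Low Klf4 was also found in the one of 6 DEP and 43 control cells. The subclusters left out were chosen by library share, so the step cannot show where the class differences arose. Those 3 had medians of 12696 to 15090.5 UMIs per cell, and the others of 7821 to 10380. Klf4 also lost its call with each cell weighing the same. With 1 library per group, a state of monocytes and a feature of the DEP library cannot be told apart.

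**Figure D3:**
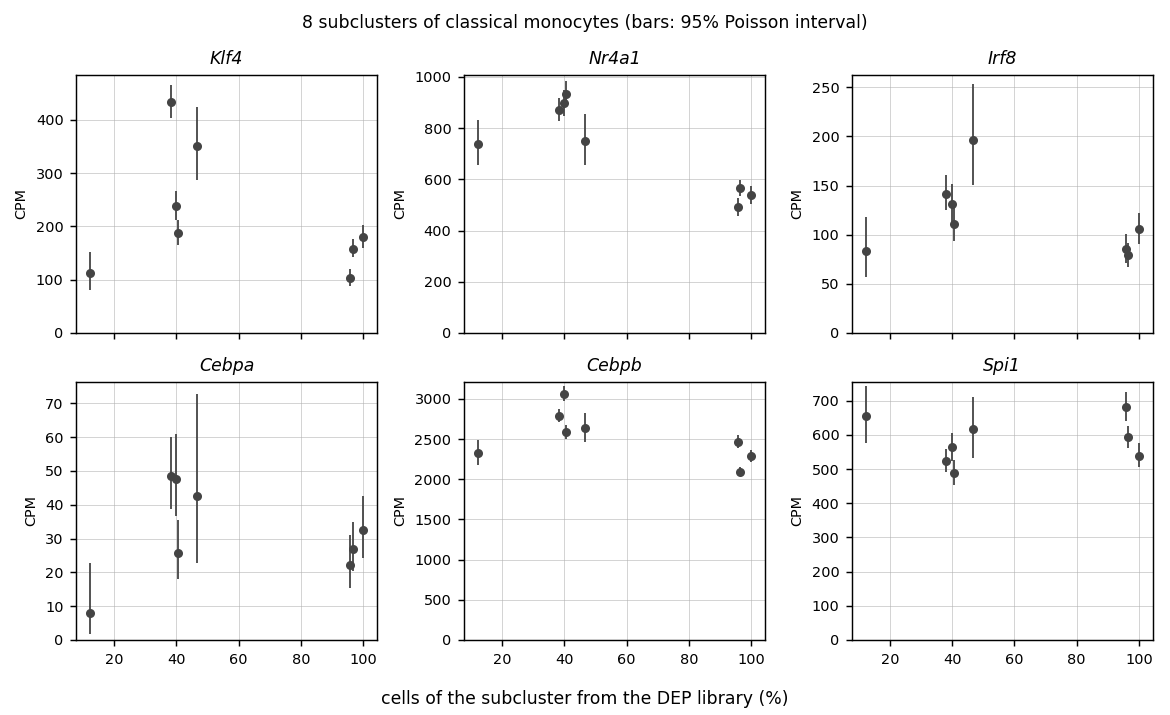
Level of 6 factors (CPM, linear axes from 0) in the 8 subclusters of classical monocytes against the share of cells from the DEP library, with Poisson intervals. The 3 subclusters at the right edge have lower Nr4a1 than the other 5, and Klf4 is also low in the subcluster with 12.2% DEP cells.

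Nonclassical monocytes, 309 DEP and 320 control cells, formed 2 clusters. One, of 126 and 124 cells, carried neutrophil RNA, its neutrophil markers summing to 71023 CPM in DEP and 64484 CPM in the control library, against 850.0 and 702 CPM in the other, of 183 and 196 cells. Over the whole class Cebpa was called lower in the DEP library, at 12.7 CPM in DEP and 23.1 CPM in control cells, a log2 ratio of -0.85 (interval -1.56 to -0.18). This rests on 31 UMIs in DEP and 49 in control cells, and it was 1 of 7 members counted beside 3.65% of 8237 genes called lower and 2.31% called higher. In the cluster with few neutrophil markers, Cebpa was 10.5 CPM in DEP and 29.0 CPM in control cells (log2 ratio -1.43). Nr4a1 there was 1831 CPM in DEP and 2644 CPM in control cells (-0.53). Klf4 was 519 CPM in DEP and 698 CPM in control cells (-0.43), and Irf8 was 90.4 CPM in DEP and 146 CPM in control cells (-0.69). There Irf8, too, passed the rule for a call. In the cluster with many, Cebpa was 14.7 CPM in DEP and 18.3 CPM in control cells, from 19 and 21 UMIs, and Nr4a1 was 2026 CPM in DEP and 2029 CPM in control cells. The class differences of both thus came mainly from 1 of the 2 clusters, and a difference between the clusters was not tested. Spi1 and Cebpb in the cluster with few neutrophil markers were 782 CPM in DEP and 808 CPM in control cells, and 3538 CPM in DEP and 3720.0 CPM in control cells. The part of neutrophil RNA in the class values was not tested beyond this split.

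**Figure D4:**
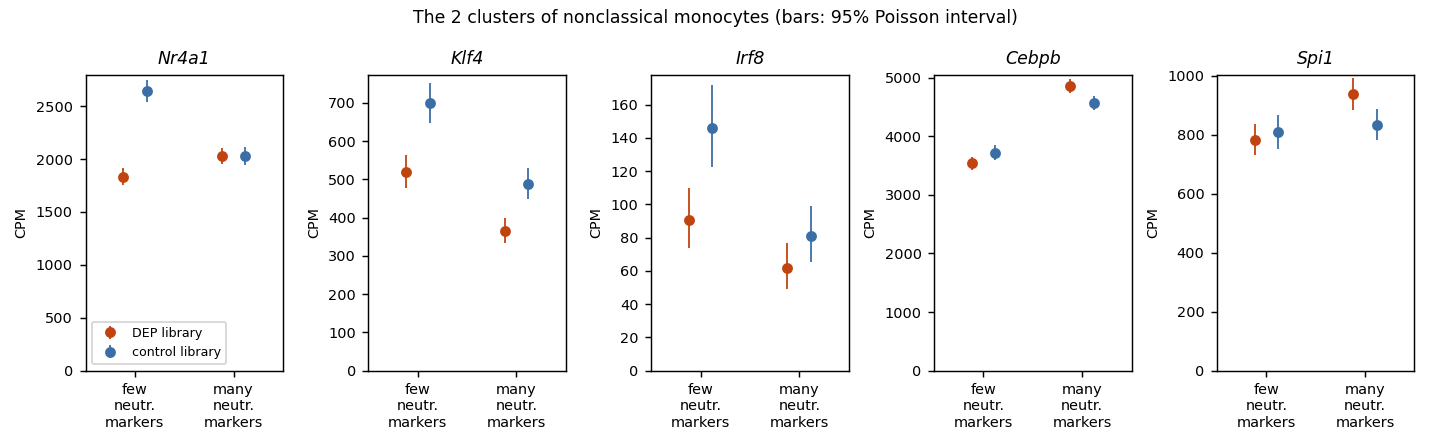
Level of 5 factors (CPM, linear axes from 0) in the 2 clusters of nonclassical monocytes, the DEP library left of the control library, with Poisson intervals. Nr4a1 is lower in the DEP library in the cluster with few neutrophil markers and equal within the intervals in the one with many, while Klf4 is lower in the DEP library in both.

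Alveolar macrophages, which clear inhaled particles, had 595 DEP and 497 control cells. The factors with high signal differed little. Spi1 was 537 CPM in DEP and 543 CPM in control cells, and Cebpa 189 CPM in DEP and 175 CPM in control cells. Cebpb was 2565 CPM in DEP and 2469 CPM in control cells and Klf4 256 CPM in DEP and 247 CPM in control cells. Nr4a1 was lower in the DEP library, at 325 CPM in DEP and 429 CPM in control cells, with a log2 ratio of -0.40 (interval -0.47 to -0.33) that did not pass 1.5-fold. The share of cells with it after thinning was 21.8% in the DEP and 33.1% in the control library. Irf4 and Zbtb46 were called lower, 2 of 9 members beside 5.19% of 10981 genes called lower and 1.33% called higher. Irf4 had 9 UMIs in DEP and 65 in control cells, a log2 ratio of -2.77 (interval -4.03 to -1.83). Zbtb46 had 5 UMIs in DEP and 38 in control cells, a log2 ratio of -2.79 (interval -4.62 to -1.57). Both lie at levels where few cells carry a UMI, 1.51% and 7.44% for Irf4. Markers of other cells moved with them. The 6 plasma cell markers summed to 5.34 CPM in DEP and 273 CPM in control cells. The 10 T cell markers summed to 15.4 CPM in DEP and 87.7 CPM in control cells, and the 10 type 2 dendritic cell markers to 126 CPM in DEP and 335 CPM in control cells, each list with no marker at 0 in either library. Without cells holding 3 or more lymphoid marker UMIs, Irf4 had a log2 ratio of -1.38 and Zbtb46 of -2.03, and neither reached the 20 UMIs needed for a call. In the largest cluster alone, of 502 and 382 cells, Irf4 was 0.760 CPM in DEP and 2.56 CPM in control cells. Zbtb46 there had 2 and 7 UMIs, too few for a call. A small cluster led by Cxcl9, of 61 DEP and 80 control cells, held 39 of the 65 control UMIs of Irf4 and 31 of the 38 of Zbtb46. In the largest cluster Batf3 was 16.5 CPM in DEP and 9.83 CPM in control cells and passed the rule as higher in the DEP library, while Nr4a1 was 299.7 CPM in DEP and 393 CPM in control cells.

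Interstitial macrophages, 110 DEP and 135 control cells of the lung tissue around airways and vessels, had no called member of 8 counted, beside 5.49% of 8227 genes called lower and 2.36% called higher. Cebpa was 98.8 CPM in DEP and 99.1 CPM in control cells, and Cebpb 1527 CPM in DEP and 1531 CPM in control cells, with intervals of the log2 ratio of -0.36 to 0.35 and -0.09 to 0.08. Nr4a1 was 499 CPM in DEP and 426 CPM in control cells, the only class besides type 2 dendritic cells where its log2 ratio, 0.23 (interval 0.07 to 0.39), was above 0. Irf4 had 15 UMIs in DEP and 3 in control cells, under the 20 needed, and 33.3% of the DEP UMIs came from 1 cell.

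Type 1 dendritic cells, 187 DEP and 185 control cells, likewise had no called member of 9, beside 3.68% of 8777 genes called lower and 2.67% called higher. The factors of this branch were at or above the control level. Batf3 was at 138 CPM in DEP and 101 CPM in control cells, a log2 ratio of 0.45 (interval 0.23 to 0.68). Irf8 was at 1109 CPM in DEP and 1039 CPM in control cells, a log2 ratio of 0.09 (interval 0.02 to 0.17). Zbtb46 was at 41.5 CPM in DEP and 35.8 CPM in control cells, a log2 ratio of 0.21 (interval -0.19 to 0.61). Spi1 was 352 CPM in DEP and 283 CPM in control cells, a log2 ratio of 0.31 (interval 0.18 to 0.45). For Batf3, Irf8 and Spi1 the intervals excluded 0 while the ratios themselves were under 1.5-fold. Nr4a1 went the other way, with a log2 ratio of -0.25 (interval -0.35 to -0.16), also under 1.5-fold. After thinning, Batf3 was seen in 15.9% of DEP and 6.59% of control cells.

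Type 2 dendritic cells, 111 DEP and 122 control cells, held 3 of the 8 calls, all lower in the DEP library, of 9 members counted beside 6.78% of 7837 genes called lower and 2.34% called higher. Irf8 was 56.2 CPM (95% interval 45.1 to 69.2) in DEP and 128 CPM (95% interval 112 to 146) in control cells, a log2 ratio of -1.18 (interval -1.56 to -0.83). Klf4 was 116 CPM (95% interval 99.4 to 134) in DEP and 223 CPM (95% interval 201 to 247) in control cells, a log2 ratio of -0.95 (interval -1.21 to -0.69). Irf4 was 39.2 CPM in DEP and 62.9 CPM in control cells, a log2 ratio of -0.68 (interval -1.16 to -0.22). Spi1 was higher, 393 CPM in DEP and 291 CPM in control cells, with a log2 ratio of 0.43 (interval 0.26 to 0.61) under 1.5-fold, and Nr4a1 and Zbtb46 had log2 ratios of 0.00 and 0.01. Irf8 was seen in few cells, 20.7% in the DEP and 28.7% in the control library, and the richest cell held 20.2% and 16.2% of its UMIs.

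At a Leiden resolution of 1.6 the type 2 class came apart, and Irf8 went opposite ways in the parts. The part that kept the type 2 name, 58 DEP and 63 control cells rich in the lectin Mgl2 (2262 CPM in DEP and 1885 CPM in control cells), had Irf8 at 46.8 CPM in DEP and 25.5 CPM in control cells, a log2 ratio of 0.86 (interval 0.11 to 1.67). That ratio rests on 41 UMIs in DEP and 24 in control cells, and the weight of single cells in it was not tested. The part grouped with plasmacytoid cells, 53 and 58 cells, had Irf8 at 67.9 CPM in DEP and 267 CPM in control cells, a log2 ratio of -1.97 (interval -2.46 to -1.51). In this second part the 9 classical monocyte markers summed to 3207 CPM in DEP and 2821 CPM in control cells, more than its 10 type 2 markers, which summed to 2529.8 CPM in DEP and 2596 CPM in control cells. By these markers its cells read at least as much like classical monocytes as like type 2 dendritic cells. Ly6c2, 1 gene of monocytes and plasmacytoid cells, was 267 CPM in DEP and 604 CPM in control cells. The 9 plasmacytoid markers summed to 729.7 CPM in DEP and 1109 CPM in control cells. Siglech, a plasmacytoid surface lectin, was 22.6 CPM in DEP and 75.1 CPM in control cells, and Tcf4, the factor of plasmacytoid cells, was 167 CPM in DEP and 377 CPM in control cells. The part of monocytes and plasmacytoid cells in the Irf8 value was not tested. Klf4 was lower in the DEP library in both parts, with 100.4 CPM in DEP and 191 CPM in control cells in the first and 134 CPM in DEP and 269.9 CPM in control cells in the second. Irf4 was 59.3 CPM in DEP and 82.9 CPM in control cells in the first part, a log2 ratio of -0.48 (interval -1.02 to 0.04). In the second it was 14.1 CPM in DEP and 38.9 CPM in control cells, a log2 ratio of -1.42 (interval -2.67 to -0.38). Spi1 was 284 CPM in DEP and 270 CPM in control cells in the first part, a log2 ratio of 0.07 (interval -0.18 to 0.33). In the second Spi1 was 527 CPM in DEP and 316 CPM in control cells. That log2 ratio, 0.74 (interval 0.50 to 0.98), was past 1.5-fold. Zbtb46 had log2 ratios of -0.73 (interval -1.61 to 0.08) in the first part and 0.80 (interval -0.04 to 1.72) in the second. The 10 T cell markers over the whole class summed to 22.1 CPM in DEP and 249.7 CPM in control cells, with 3 and 0 of them at 0, and the 9 B cell markers to 128 CPM in DEP and 272 CPM in control cells. The 11 neutrophil markers went the other way, with 865 CPM in DEP and 415 CPM in control cells, and 1 and 0 of them at 0. The part of these cells in the class values, that of Spi1 included, was not tested.

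**Figure D5:**
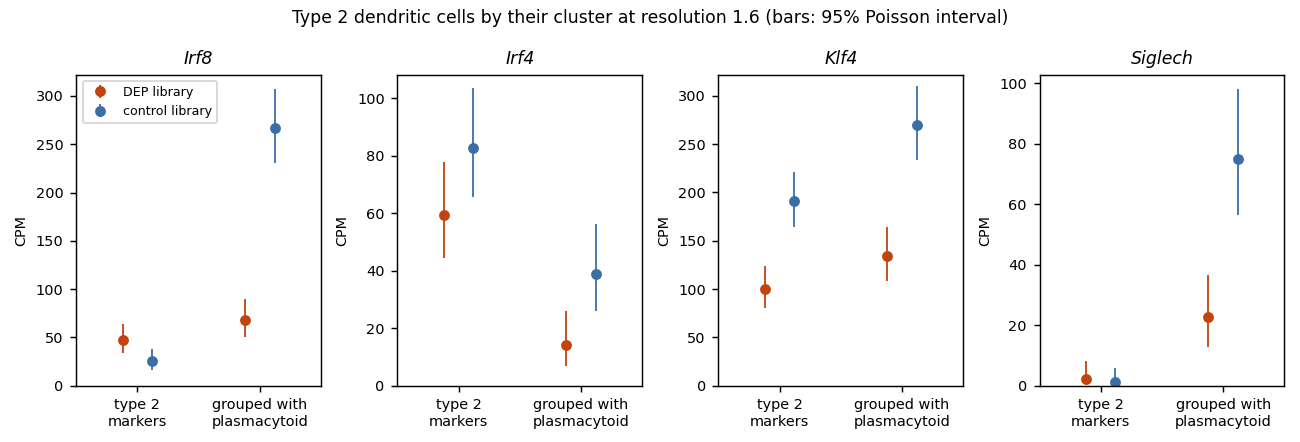
Level of Irf8, Irf4, Klf4 and the plasmacytoid gene Siglech (CPM, linear axes from 0) in the 2 parts into which type 2 dendritic cells fall at resolution 1.6, the DEP library left of the control library, with Poisson intervals. Klf4 is lower in the DEP library in both parts, and Irf8 is lower there in the part grouped with plasmacytoid cells and higher in the other, where Siglech had 2 DEP and 1 control UMIs.

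In neutrophils, 2626 DEP and 2771 control cells, Spi1 was the member with the clearest difference at high counts: 8489 UMIs in the DEP library and 6155 in the control library, a log2 ratio of 0.40 (interval 0.35 to 0.45) that stayed under 1.5-fold. It was higher in the DEP library in the 3 large clusters. The levels were 1079 and 784 CPM in the DEP and control cells of the largest, 1074 and 832 CPM in the next, and 1080.3 and 834 CPM in the one led by interferon-induced genes. After thinning, 64.9% of DEP and 52.6% of control neutrophils had Spi1. Over all genes the median log2 ratio in neutrophils was -0.10, so relative to it the difference in Spi1 is larger, 0.50 on scaling by the median. Cebpb and Nr4a1 had log2 ratios of 0.07 (interval 0.06 to 0.09) and -0.17 (interval -0.22 to -0.13). Irf8 was called lower, 1 of 7 members counted beside 7.65% of 8705 genes called lower and 2.47% called higher. It had 5.25 CPM in DEP and 13.2 CPM in control cells from 42 UMIs in DEP and 101 in control cells. The same gene in T cells was 5.92 CPM in DEP and 14.5 CPM in control cells, a log2 ratio of -1.28 (interval -1.87 to -0.74). The 9 B cell markers in neutrophils summed to 144 CPM in DEP and 267 CPM in control cells, with no marker at 0.

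Outside the myeloid classes, Irf8 in natural killer cells had a log2 ratio of -0.12 (interval -0.16 to -0.08) and in B cells of -0.09 (interval -0.19 to 0.02). Nr4a1 was lower in the DEP library in B, T and natural killer cells, with log2 ratios of -0.21, -0.46 and -0.43, where the medians over all genes were -0.15, -0.12 and -0.04. Klf4 was called lower in natural killer cells at 27.9 CPM in DEP and 52.0 CPM in control cells, beside 2.73% of genes called lower and 1.48% called higher there. T cells had Irf4 and Irf8 called lower, beside 5.04% of genes called lower and 1.07% called higher. B cells had 4.79% of genes called lower and 0.949% called higher. Lower Nr4a1 in the DEP library was thus found in 8 of the 10 classes with a ratio, lymphocytes included, and was called in none of them. In neutrophils and B cells its log2 ratios, -0.17 and -0.21, lay near the medians over all genes, -0.10 and -0.15. Within classical and nonclassical monocytes it was not lower in every subcluster or cluster, as given above.

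A further 4 lists of related genes were read in the same way, by counts of calls and by the median log2 ratio beside that of all genes with at least 20 UMIs. Known target genes of PU.1 and C/EBP proteins, 13 receptors, lysosomal and adhesion genes, had 0 members called in either direction in classical monocytes, nonclassical monocytes, alveolar macrophages and neutrophils, with medians of 0.09, 0.08, 0.05 and -0.02 beside -0.05, -0.06, -0.05 and -0.12 for all genes. Lone members of the 13 were called lower in the other 3 classes. Of all genes, 5.49% were called lower in interstitial macrophages, 3.68% in type 1 and 6.78% in type 2 dendritic cells. Itgam, an integrin, was lower in interstitial macrophages at 168 and 254 CPM in DEP and control cells (log2 ratio -0.59). Cd14, the endotoxin co-receptor, was lower in type 1 dendritic cells at 178 and 301 CPM in DEP and control cells (log2 ratio -0.76), and Mpeg1, a pore-forming protein, in type 2 dendritic cells at 232 and 352 CPM in DEP and control cells (log2 ratio -0.60). The largest count was that of Lyz2, lysozyme, in classical monocytes, at 27646 and 28097 CPM in DEP and control cells (log2 ratio -0.02).

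Of 17 genes from the members' families, 16 were counted in classical monocytes, with 0 called higher and 1 lower. Of all genes 5.08% were called higher and 6.34% lower there, so this count stood near the background. The median log2 ratio was -0.20 beside -0.05 for all genes. The call was Nr4a2, a relative of Nr4a1, at 76.2 and 114 CPM in DEP and control cells (log2 ratio -0.59). Nr4a2 was also called lower in nonclassical monocytes at 54.6 and 85.0 CPM in DEP and control cells (log2 ratio -0.64), in neutrophils at 70.6 and 124 CPM in DEP and control cells (log2 ratio -0.81), and in both macrophage classes. Nr4a3, the other relative, was called lower in alveolar macrophages at 33.0 and 69.9 CPM in DEP and control cells (log2 ratio -1.08) and in interstitial macrophages at 44.0 and 78.0 CPM in DEP and control cells (log2 ratio -0.82), while type 2 dendritic cells had 388 and 281 CPM in DEP and control cells (log2 ratio 0.47). Klf2, a relative of Klf4, was called lower in type 2 dendritic cells at 99.8 and 208 CPM in DEP and control cells (log2 ratio -1.05). Cebpd, the C/EBP gene induced in inflammation, was called higher in nonclassical monocytes at 69.8 and 45.8 CPM in DEP and control cells (log2 ratio 0.60) and in type 1 dendritic cells at 23.9 and 9.05 CPM in DEP and control cells (log2 ratio 1.38). Irf7, which drives interferon production, was called higher in neutrophils at 90.9 and 55.4 CPM in DEP and control cells (log2 ratio 0.71) and in interstitial macrophages from 26 and 16 UMIs. Family genes called higher and lower were 1 and 1 of 14 in nonclassical monocytes (2.31% and 3.65% of all genes). They were 1 and 1 of 14 in neutrophils (2.47% and 7.65%) and 1 and 3 of 16 in alveolar macrophages (1.33% and 5.19%). Interstitial macrophages had 1 and 3 of 14 (2.36% and 5.49%). Type 1 dendritic cells had 1 and 0 of 14 (2.67% and 3.68%), and type 2 dendritic cells 0 and 2 of 14 (2.34% and 6.78%).

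Of 25 further lineage factors, 22 were counted in classical monocytes, with 1 called higher and 4 lower, beside 5.08% of all genes called higher and 6.34% lower. Their median log2 ratio was -0.23, beside -0.05 for all genes. Bhlhe40, a repressor used by activated macrophages, was higher at 163 and 103 CPM in DEP and control cells (log2 ratio 0.65), and Ets2 was lower at 181 and 296 CPM in DEP and control cells (log2 ratio -0.71), together with Bach2, Maf and Ikzf1. Bhlhe40 was lower in interstitial macrophages at 58.4 and 131 CPM in DEP and control cells (log2 ratio -1.16). Id3, an inhibitor of E proteins, was called higher in nonclassical monocytes at 193 and 120.0 CPM in DEP and control cells (log2 ratio 0.68), and in neutrophils from 40 and 16 UMIs. It was also called higher in type 1 dendritic cells at 29.2 and 8.32 CPM in DEP and control cells (log2 ratio 1.79) and in type 2 dendritic cells at 66.9 and 32.6 CPM in DEP and control cells (log2 ratio 1.03). In neutrophils 7 of 22 were called lower and 1 higher, beside 7.65% of all genes called lower and 2.47% higher. The median there was -0.37, beside -0.12 for all genes. The largest count was that of Ets2 at 1247 and 1556 CPM in DEP and control cells (log2 ratio -0.32). Alveolar macrophages had 4 of 23 lower and 0 higher, beside 5.19% of all genes called lower and 1.33% higher. Among the 4 were Runx3 at 15.4 and 31.0 CPM in DEP and control cells (log2 ratio -1.01) and Bach2 from 16 and 51 UMIs (-1.63). Nonclassical monocytes had 1 of 22 higher and 3 lower (2.31% and 3.65% of all genes), and interstitial macrophages 1 of 23 higher and 1 lower (2.36% and 5.49%). Type 1 and type 2 dendritic cells each had 1 of 19 higher and 2 lower (2.67% and 3.68%, and 2.34% and 6.78%).

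The 18 immediate early genes, which also rise during tissue digestion, had no direction common to the classes. In classical monocytes only 3 of 18 had a ratio above 0, with a median of -0.19 beside -0.05 for all genes, so most leaned lower, as Nr4a1 and Klf4 did. In type 1 dendritic cells 15 of 18 had a ratio above 0, with a median of 0.10. In classical monocytes 2 were called higher and 0 lower, beside the 5.08% and 6.34% of all genes. These were Ier3 at 430.1 and 169.6 CPM in DEP and control cells (log2 ratio 1.34) and Egr2 from 80 and 16 UMIs. In alveolar macrophages 3 of 18 were called higher and 0 lower, beside 1.33% of all genes called higher and 5.19% lower. These were the heat shock genes Hspa1a and Hspa1b and the zinc finger gene Egr1, with Hspa1b at 195 and 123 CPM in DEP and control cells (log2 ratio 0.67). Nr4a1 was lower in the DEP library in that class. In type 2 dendritic cells 2 of 18 were called lower and 0 higher, beside 6.78% of all genes called lower and 2.34% higher. They were Fos at 315 and 512 CPM in DEP and control cells (log2 ratio -0.70) and Atf3 at 205 and 327 CPM in DEP and control cells (log2 ratio -0.67). In neutrophils and type 1 dendritic cells 0 of 18 were called, the largest count being that of Dusp1 in neutrophils at 4504 and 5798 CPM in DEP and control cells (log2 ratio -0.36). Junb, the member with the largest count in most classes, had 1716 and 1747 CPM in DEP and control cells (log2 ratio -0.03) in classical monocytes. Whether handling of the 2 libraries shares in the values of Nr4a1 and Klf4 was not tested.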

How the data were processed

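Single-cell RNA was read from CD45+ lung cells with the 10x Genomics 3′ kit, which tags transcript 3′ ends. The deposited tables hold raw UMI counts per gene and barcode. The submitters' processing notes name Cell Ranger 3.1.3 and mm10, while the matrix header gives 3.1.0. Cells with at least 500 UMIs, 200 genes and at most 10% mitochondrial UMIs were kept, and 706 DEP and 751 control barcodes were removed as likely doublets by similarity to simulated ones. Leiden clustering (leidenalg 0.10.2, resolution 1, 2000 variable genes without the 9 factors and the listed lineage factors, 30 components, 20 neighbours) was named by markers, 3 or more among the 50 leading genes and no other class with more among the top 10.

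UMIs were summed per class and library. Levels carry exact Poisson intervals, shares Clopper-Pearson intervals, and log2 ratios (0.5 added) exact conditional binomial intervals, all covering counting error only. Thinned shares used 1000 UMIs per cell. With 1 library per group no p-value was made. Gene positions came from an annotation of mm10, matched by identifier for 30934 of 31053 genes. The ratio step was tested on simulated counts. Named genes were all 9 members, and of each list the 2 highest and 2 lowest called and the largest count, not all of which are printed. The members, lists and markers were chosen with earlier results of these data known.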

Additional observations from a re-analysis of the deposited data

How the results depend on the processing

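The number of pairs called lower in the DEP library, 8, became 5 with a stricter cell filter, 4 at Leiden resolution 0.6 and 5 at a minimum of 100 UMIs, where fewer pairs could be counted. The number called higher, 0, became 3 with each library clustered alone. It became 1 with no cell filter, a stricter cell filter, doublets kept, resolution 1.6 and scaling by the median ratio. It was also 1 with a minimum of 5 UMIs, in the largest alveolar macrophage cluster alone, and without cells with 3 or more lymphoid marker UMIs. At a minimum of 5 UMIs the pair was Irf4 in interstitial macrophages (15 and 3 UMIs in DEP and control cells). On scaling it was Batf3 in nonclassical monocytes, whose unscaled interval began at -0.01. In the largest alveolar macrophage cluster it was Batf3. Why calls appeared in the other settings was not tested. Irf8 in type 2 dendritic cells changed sign at resolution 1.6, since the class then held the part with type 2 markers. Its log2 ratio there was 0.86 (interval 0.11 to 1.67), which passed the rule as higher in the DEP library. It rests on 41 UMIs in DEP and 24 in control cells. Klf4 in classical monocytes lost its call in 4 of 13 alternatives (log2 ratio -0.64 to -0.16), Cebpa in nonclassical monocytes in 3 of 13, Irf4 and Zbtb46 in alveolar macrophages in 1 and 3 of 13, Irf4 and Klf4 in type 2 dendritic cells in 5 and 1 of 9, and Irf8 in neutrophils in 1 of 12. Of 747 alternative values over all pairs, 681 lay inside the counting interval. There were 12 alternatives set with the design and 5 chosen after seeing the data. Type 2 dendritic cells gave no value at resolution 0.6 and with the stricter filter, and no cluster was over 80% of 1 library, so leaving such clusters out gave none. No paired analysis was possible because each group held 1 library, and no replicate could be left out. Depth limits Irf4 and Zbtb46 outside dendritic cells most.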
